A study of Mus musculus with 283 samples.

Results

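The genes described here are the secreted and membrane-bound Wnt antagonists Sfrp1, Sfrp2, Wif1, Dkk2, Dkk3 and Apcdd1 and the intracellular feedback gene Axin2, followed through transplanted mouse tumours, the cultured lines they grew from, and the lymph nodes and spleens of the hosts. The members were 8 given symbols, and a gene was taken from a probe set annotated to its symbol alone. By that rule 7 of the 8 were measured, out of 15224 genes in all. Dkk1, on chromosome 19, was not used, because its only probe set also carries other gene names and reads 3 genes together. Each of the other 7 genes had 1 probe set, and all 7 passed the filter on low values in every comparison.

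RNA was measured on Affymetrix mouse exon arrays in 77 tumours of 15 models, 92 lymph nodes, 98 spleens and 16 cultures. BALB/c females carried 4T1 (breast), CT26 (colon) or Renca (kidney), DBA/2J females carried the mast cell line P815, and C57BL/6J males carried the prostate lines TRAMPC1 or TRAMPC2. C57BL/6J females carried the melanoma lines B16F0, from ATCC or ECACC, or B16F10, from ATCC or NCI, the blood cell line EL4, the lung lines LL2 or TC1, the colon line MC38 or the pancreas line PAN02. PAN02 was placed in the pancreas and had no node group, and all other lines were implanted subcutaneously on the back. No agent other than the tumour cells is named for any group, and ages are not given. Replicates were separate animals, numbered in the labels. Groups held 5, except MC38 with 8 tumours, 7 nodes and 8 spleens, and PAN02 with 4 tumours. Tumour-free BALB/c females, C57BL/6J females, C57BL/6J males and DBA/2J females gave 5 nodes and 5 spleens each. A culture was 1 array per line, so it has no replicate error. Hepa1-6 (liver) and ID8 (ovary) were measured in culture only, and TC1 in tumours only. The 4 B16 stocks were treated as 1 family and the 2 TRAMPC lines as another, which gave 11 families.

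Wnt ligands signal through Frizzled receptors and the co-receptors Lrp5 and Lrp6, and in the canonical branch the signal spares beta-catenin from a destruction complex so that it can act with TCF factors in the nucleus. Secreted antagonists act outside the cell. The Sfrp proteins and Wif1 bind the ligands, Dkk1 and Dkk2 bind the co-receptors, Dkk3 is a divergent Dickkopf protein without an established co-receptor function, and Apcdd1 is a membrane glycoprotein that inhibits the pathway. Axin2 is a scaffold of the destruction complex that is itself transcribed in response to the pathway, and it is widely used as a readout of canonical signalling.

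The genes lie at separate places in the mouse genome (GRCm38.p6). Dkk2 spans chr3:132085266-132180304, Sfrp2 chr3:83765750-83774314, Dkk3 chr7:112116019-112159482, Sfrp1 chr8:23411383-23449632, Wif1 chr10:121034004-121100642 and Axin2 chr11:108917828-108950783, and Apcdd1 is given with its values below. RefSeq promoter windows from 250 bases before to 50 bases after a start site were on hand for 4 of the 7, Dkk2, Sfrp2, Wif1 and Axin2. The spans above cover all annotated transcripts of a gene, and the start site of the window lies at the first base of the span for Wif1 and 26, 571 and 2521 bases inside it for Dkk2, Sfrp2 and Axin2. The windows are shown because Dkk2, Sfrp2 and Wif1 are among the 4 genes that differed most between models below and Axin2 is the pathway's own target. Each is the plus strand of GRCm38.p6 read 5′ to 3′, in lower case with CpG pairs in capitals. The windows are chr3:132085042-132085341 for Dkk2, chr3:83766071-83766370 for Sfrp2, chr10:121033754-121034053 for Wif1 and chr11:108920099-108920398 for Axin2.
Dkk2: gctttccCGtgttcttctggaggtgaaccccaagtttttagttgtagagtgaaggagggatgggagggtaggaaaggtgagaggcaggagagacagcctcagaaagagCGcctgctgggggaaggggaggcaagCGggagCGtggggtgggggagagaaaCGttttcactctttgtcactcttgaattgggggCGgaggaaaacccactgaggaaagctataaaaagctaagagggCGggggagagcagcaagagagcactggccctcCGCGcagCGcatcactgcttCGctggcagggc
Sfrp2: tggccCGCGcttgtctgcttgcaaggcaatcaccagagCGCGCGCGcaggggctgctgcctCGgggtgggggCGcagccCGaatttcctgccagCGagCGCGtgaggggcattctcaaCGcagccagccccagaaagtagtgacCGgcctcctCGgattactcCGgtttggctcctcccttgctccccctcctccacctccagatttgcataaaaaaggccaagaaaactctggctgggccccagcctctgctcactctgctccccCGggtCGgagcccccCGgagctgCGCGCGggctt
Wif1: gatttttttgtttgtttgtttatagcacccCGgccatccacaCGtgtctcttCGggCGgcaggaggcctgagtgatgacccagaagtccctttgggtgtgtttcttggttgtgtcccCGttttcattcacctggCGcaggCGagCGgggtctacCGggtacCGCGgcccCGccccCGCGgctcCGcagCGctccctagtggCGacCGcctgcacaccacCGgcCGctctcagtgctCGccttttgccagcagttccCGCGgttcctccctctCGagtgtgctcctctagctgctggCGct
Axin2: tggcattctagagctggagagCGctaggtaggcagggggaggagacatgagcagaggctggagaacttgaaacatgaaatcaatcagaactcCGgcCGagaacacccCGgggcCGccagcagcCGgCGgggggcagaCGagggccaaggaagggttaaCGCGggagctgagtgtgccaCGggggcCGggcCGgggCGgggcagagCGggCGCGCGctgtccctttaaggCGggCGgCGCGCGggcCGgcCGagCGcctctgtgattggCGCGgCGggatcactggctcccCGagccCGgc

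The Dkk2 window held 11 CpG pairs, the Sfrp2 window 22, the Wif1 window 25 and the Axin2 window 31, against a median of 7 over 32851 mouse windows. Fewer CpG pairs were found in 58.6% of all windows for Dkk2, in 76.9% for Sfrp2, in 81.6% for Wif1 and in 89.4% for Axin2. The TCF motif was searched on both strands as CTTTGAA, with the variant form CTTTGAT, the further form CTTTGTA and lastly the form CTTTGTT. It was in 0 of the 4 windows and in 16.9% of all windows.

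Some arrays carried markers that did not go with their labels, and they were picked out by marker genes alone, after the data had been seen and without any of the 7 genes. Of the 92 nodes, 8 had B cell genes at a list mean under 7 on the log2 scale, where the 82 undoubted nodes ran from 7.76 to 8.90. They were 4T1 animal 36, CT26 animals 28 and 29, Renca animals 21, 22 and 24, and 1 tumour-free animal each of DBA/2J (animal 5) and C57BL/6J females (animal 5). Another 2 nodes, of tumour-free C57BL/6J females 2 and 4, had spleen markers, with the lymphatic vessel gene Lyve1 at 4.29 and 3.80 and erythroid genes at 5.53 and 6.83. The undoubted nodes had Lyve1 from 5.63 to 7.58 and erythroid genes from 4.12 to 4.57. Conversely 3 spleens, of C57BL/6J females 1 and 3 and BALB/c animal 9, had Lyve1 at 7.00, 6.44 and 6.35 and erythroid genes at 4.32, 4.18 and 4.49. The labels give spleen 1 and node 2 of the C57BL/6J females the consecutive sample numbers 233 and 234, and spleen 3 and node 4 the numbers 237 and 238. Among tumours, 7 carried genes of keratinocytes and hair follicles at a list mean over 7, in P815 animals 27, 28 and 30, TRAMPC1 animal 30, TRAMPC2 animals 31 and 34 and CT26 animal 25. The undoubted tumours reached at most 5.78 on that list. In 2 PAN02 tumours, of animals 3 and 4, pancreatic acinar genes lay at 9.67 and 11.90, and the undoubted tumours reached at most 5.38. Spleens were not picked out by acinar genes, and the 95 that were kept reached 8.89 on that list. Where leaving out these 13 nodes and spleens or 9 tumours changed a call of the 7 genes or moved a value much, both values are given. Melanocyte genes averaged 9.75 to 9.98 in the B16 tumours and at most 4.88 in the other models. Mast cell genes averaged 6.17 in P815 tumours and T cell genes 7.93 in EL4 tumours. The epithelial list did not set every carcinoma label apart. Among the tumours with keratinocyte genes it was 5.25 in CT26 animal 25, and 5.21, 5.79 and 5.96 in P815 animals 27, 28 and 30. In PAN02 animals 3 and 4 it was 8.67 and 6.73.

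The 7 genes differed more between tumour models than between tumours of a model. A gene was called in this comparison when limma's F test over the 77 tumours gave a Benjamini-Hochberg adjusted p under 0.05 and the model means spanned at least 1 log2 unit. All 7 were called, against 52.8% of the genes tested, so the call itself does not set them apart. The spans did differ. The means spanned 5.57 log2 units for Apcdd1, 4.61 for Dkk2, 3.60 for Sfrp2, 2.20 for Wif1, 1.75 for Sfrp1, 1.54 for Dkk3 and 1.14 for Axin2, and the median over all genes was 1.06. The adjusted p ran from 5.04e-40 for Dkk2 to 3.11e-07 for Sfrp1. In bulk tissue such as this, fewer cells of a type and less RNA per cell cannot be told apart. All levels below are log2 values and are compared within a gene, not between genes.

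**Figure D1:**
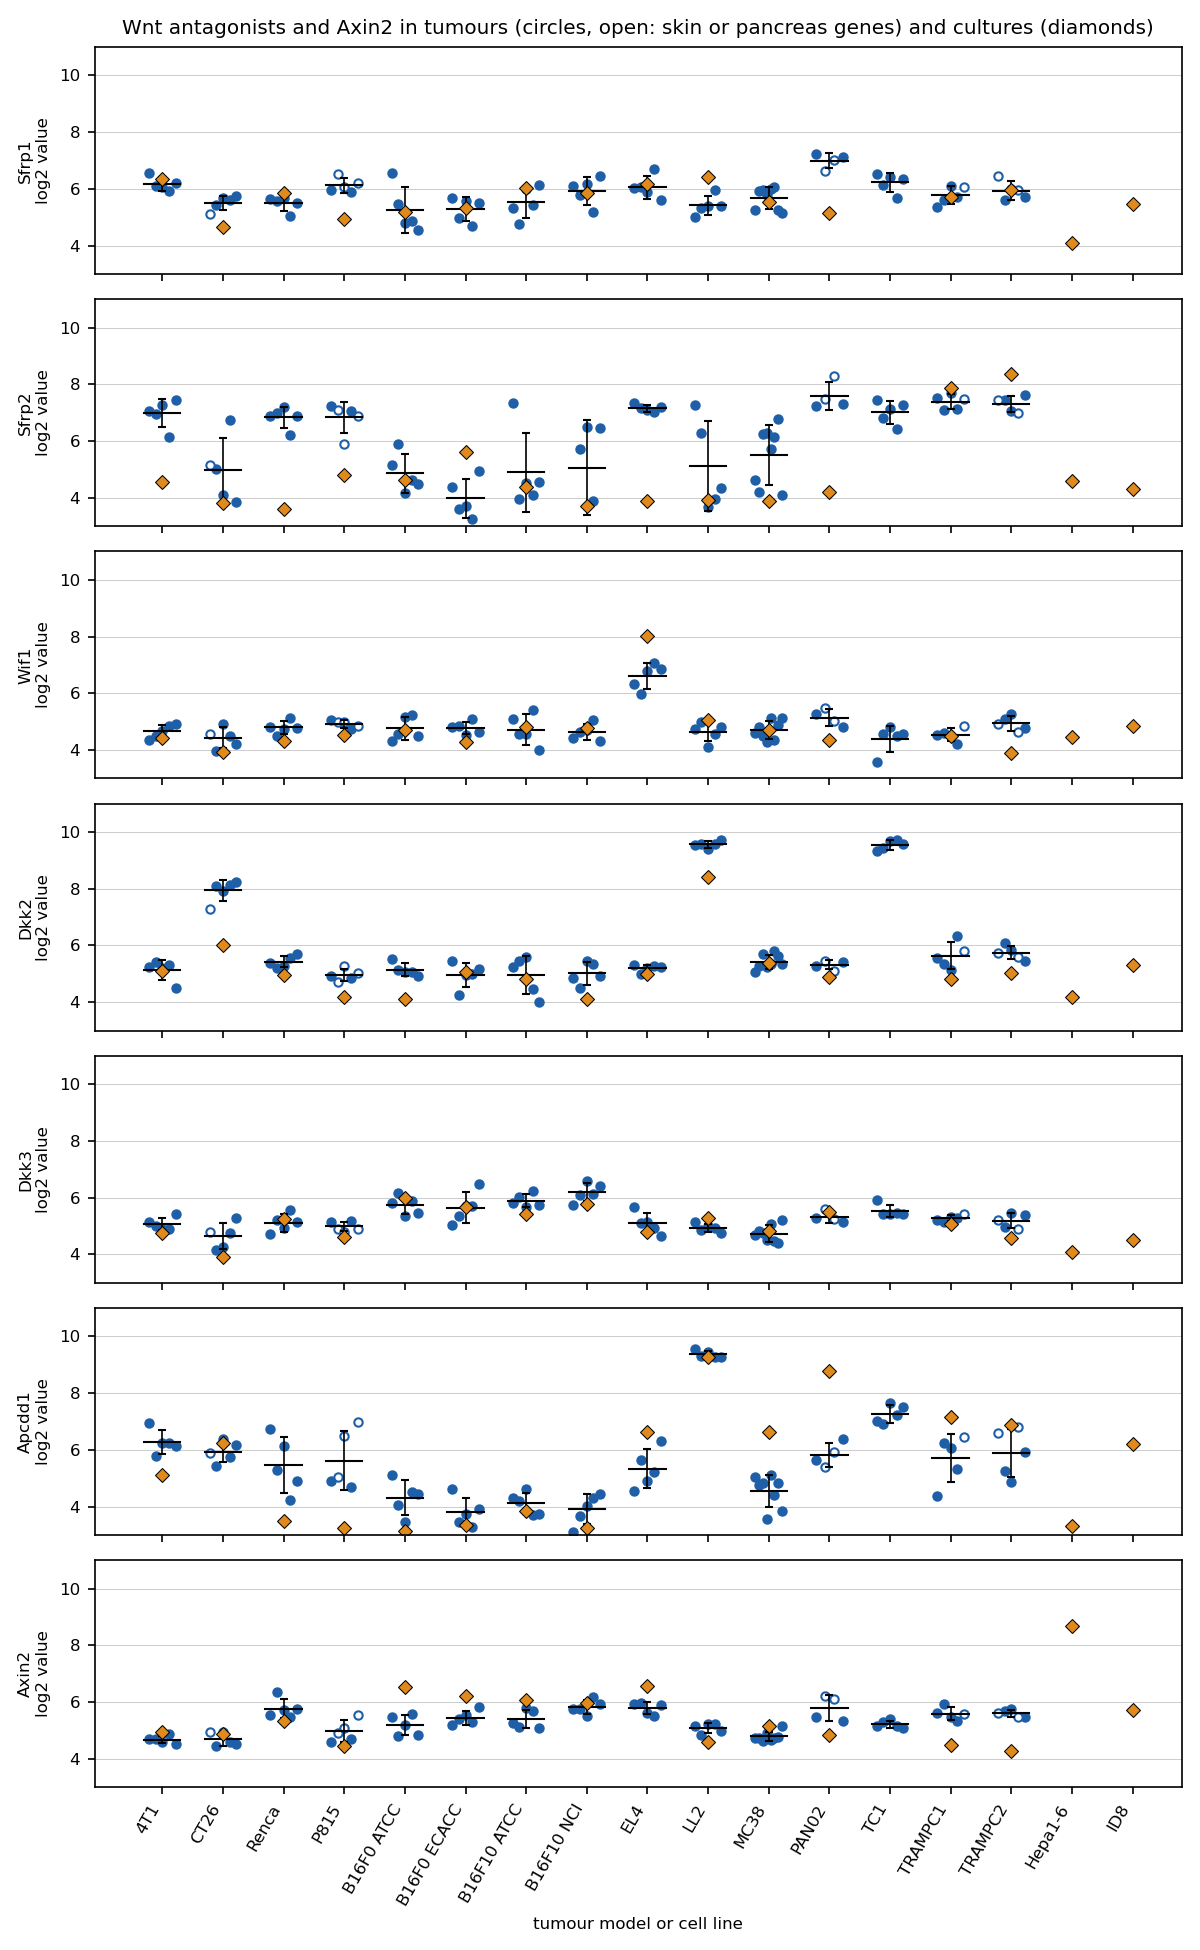
Log2 values of the 7 genes in each tumour (circles) and each culture (diamonds) by model, 1 panel per gene, with bars at the tumour mean ± SD. Open circles are the 9 tumours with keratinocyte or acinar genes. Dkk2 and Apcdd1 stand high in LL2 and TC1, Wif1 in EL4 and Sfrp1 in PAN02.

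Sfrp1, which binds Wnt ligands through its Frizzled-like domain, was highest in the pancreatic PAN02 tumours. The 4 PAN02 tumours measured 7.24, 6.64, 7.00 and 7.11, a mean of 7.00 ± 0.26 (SD, n = 4). TC1 came next at 6.23 ± 0.34 (SD, n = 5), and no TC1 tumour reached the lowest PAN02 tumour. In the remaining models 1 tumour did, EL4 animal 17 at 6.70. From TC1 downwards the models overlapped from neighbour to neighbour, down to B16F0 from ATCC at 5.25 ± 0.81 (SD, n = 5). The same fit gave the difference between a family and the average of the remaining 10. Sfrp1 in PAN02 was 1.20 ± 0.20 log2 units above that mean (adjusted p = 3.46e-06), in a comparison that called 4.74% of genes. Without the arrays of doubtful content, and so with 2 PAN02 tumours, the difference was 1.40. The PAN02 culture measured 5.14, below all 4 tumours.

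Sfrp2, a relative of Sfrp1 that is abundant in activated fibroblasts, was high and fairly even in some models and low and scattered in others. In PAN02, TRAMPC1, TRAMPC2, EL4, TC1, 4T1, Renca and P815 the means lay between 6.83 and 7.58 with SDs from 0.12 to 0.54. The EL4 tumours were the most even of these at 7.34, 7.15, 7.09, 7.01 and 7.19. In the other 7 models the means lay between 3.98 and 5.51 with SDs from 0.68 to 1.68. The LL2 tumours measured 7.28, 6.28, 3.66, 3.96 and 4.35, so that 2 of the 5 lay within the span of the high models and 3 far below. The B16F10 tumours from NCI measured 2.73, 5.73, 6.49, 3.88 and 6.45, the widest scatter of any model. The B16F10 tumours from ATCC measured 7.34, 3.96, 4.52, 4.10 and 4.56, with 1 tumour, of animal 7, apart from the rest. The 8 MC38 tumours ran from 4.09 to 6.77, and the B16F0 tumours from ECACC from 3.24 to 4.94.

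Against the other families Sfrp2 was lower in B16 by 1.83 ± 0.23, in CT26 by 1.54 ± 0.40 and in LL2 by 1.39 ± 0.40 (adjusted p = 0.00767), and higher in PAN02 by 1.34 ± 0.45 (adjusted p = 0.0165) and in TRAMPC by 1.09 ± 0.30. These comparisons called 7.36%, 3.15%, 3.27%, 4.74% and 3.67% of genes. The LL2 call was lost on leaving out animal 16 (log2 difference -1.02), 17 (-1.10) or 18 (-1.20), the tumours with the lowest values. The PAN02 call was lost without tumour 4, whose acinar genes were highest (1.10, adjusted p = 0.116), and without all doubtful arrays (0.99, adjusted p = 0.409). Fibroblast and matrix genes did not follow Sfrp2 in every model. Their list mean lay between 5.05 and 5.39 in the 4 B16 groups and between 6.36 and 7.81 in all other models, CT26 at 6.36 and LL2 at 7.07 included. Among the LL2 tumours it was 7.16, 7.28, 7.06, 7.19 and 6.68 in the order given above, so the fibroblast list ran from 6.68 to 7.19 in the 3 tumours with low Sfrp2. In the B16F10 tumour of animal 7 it was 5.81, against 4.77 to 5.01 in the other 4 of that group. The part of fibroblast content in these differences was not tested.

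Wif1, a secreted protein that binds Wnt ligands through its own WIF domain, was high in EL4 alone. The EL4 tumours measured 6.31, 5.96, 6.80, 7.08 and 6.85, a mean of 6.60 ± 0.46 (SD, n = 5). Every other model lay between 4.40 and 5.14, and the highest single tumour outside EL4 did not reach the lowest EL4 tumour. EL4 was 1.89 ± 0.15 log2 units above the other families (adjusted p = 6.95e-17), where 6.91% of genes were called. The EL4 culture stood higher still, at 8.01, against 5.07 for the next culture, LL2, so all 5 EL4 tumours lay below their own culture.

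Dkk2, which binds Lrp5 and Lrp6, was high in 3 models. The LL2 tumours measured 9.55, 9.58, 9.40, 9.58 and 9.72, the TC1 tumours 9.34, 9.42, 9.69, 9.73 and 9.57, and the CT26 tumours 7.28, 8.10, 7.93, 8.14 and 8.24. LL2 and TC1 overlapped fully, CT26 lay below both without overlap, and all 12 other models lay lower still with means from 4.95 to 5.74 that overlapped from neighbour to neighbour. Against the other families Dkk2 was higher in LL2 by 3.60 ± 0.15 (adjusted p = 2.46e-30), in TC1 by 3.58 ± 0.15 (adjusted p = 4.11e-31; 4.44% of genes called) and in CT26 by 1.81 ± 0.15 (adjusted p = 7.27e-16). It was called lower in 4T1, B16, EL4, P815 and PAN02, with log2 differences from -1.07 to -1.47, in comparisons that called 3.06%, 7.36%, 6.91%, 6.77% and 4.74% of genes, but the mean they are set against holds the 3 high families. The cultures followed the same order: LL2 measured 8.41, CT26 6.01 and all others between 4.10 and 5.38. TC1 had no culture.

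Dkk3, the divergent Dickkopf protein, varied little and was highest in the melanomas. The 4 B16 groups held the first 4 ranks, with B16F10 from NCI at 6.19 ± 0.32, B16F10 from ATCC at 5.90 ± 0.24, B16F0 from ATCC at 5.73 ± 0.32 and B16F0 from ECACC at 5.65 ± 0.54 (SD, n = 5 each). Each overlapped the next, and TC1 followed at 5.53 ± 0.21. The B16 family lay 0.80 above the other families, under the threshold of 1 for a call. CT26 was lowest at 4.64 ± 0.45 and had the lowest culture value as well, at 3.92.

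Apcdd1, whose human counterpart is mutated in a hereditary hair loss and which is expressed in hair follicles, had the widest range of the 7 genes. It lies at chr18:62922327-62953815 (GRCm38.p6). The LL2 tumours measured 9.54, 9.30, 9.44, 9.29 and 9.29, all above the TC1 tumours at 7.01, 6.91, 7.65, 7.24 and 7.50. From TC1 downwards the models overlapped from neighbour to neighbour to the B16 groups, which held the last 4 ranks with means from 3.80 to 4.31. Against the other families Apcdd1 was higher in LL2 by 3.76 ± 0.28 (adjusted p = 9.98e-18) and in TC1 by 1.44 ± 0.28 (adjusted p = 4.13e-05), and lower in B16 by 2.11 ± 0.16 and in MC38 by 1.54 ± 0.23, where 4.1% of genes were called. Keratinocyte genes went along with the spread in some models and not in others. The P815 tumours of animals 26 and 29 measured 4.90 and 4.68 with keratinocyte lists of 5.46 and 4.67, whereas animals 27, 28 and 30 measured 5.03, 6.49 and 6.99 with lists of 8.02, 8.36 and 8.78. In TRAMPC2 the highest values, 6.61 and 6.80, were those of animals 31 and 34, whose lists were 8.55 and 8.50. The TRAMPC1 tumour of animal 30, with a list of 8.81, measured 6.47, where the next of its group was 6.25. CT26 animal 25, with a list of 7.32, measured 5.90, in the middle of its group (5.44 to 6.40). The Renca tumours ran from 4.22 to 6.73 with lists between 4.49 and 4.93 throughout. Without the doubtful arrays, and so with 2 P815 tumours, Apcdd1 was called lower in P815 (-1.18 ± 0.39, adjusted p = 0.0231; 7.37% of genes called). With all arrays the difference was -0.37, not called, and 6.77% of genes were called. The part of skin in the Apcdd1 values was not tested.

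Axin2 varied least. B16F10 from NCI (5.82 ± 0.26), PAN02 (5.79 ± 0.45), EL4 (5.79 ± 0.21) and Renca (5.77 ± 0.34) led, and 4T1 was last at 4.68 ± 0.12 (SD, n = 5, and 4 for PAN02). Every model overlapped its neighbour in this order. Against the other families Axin2 had an unadjusted p under 0.05 in limma in 9 of 11 families. In the same 9 the adjusted p ran from 1.69e-05 (MC38) to 0.0378 (P815). Every difference was under 1 log2 unit, so 0 were called. Without the doubtful arrays the PAN02 mean was 5.41, and its difference from the other families went from 0.58 to 0.24 (adjusted p = 0.472). The P815 difference went from -0.31 to -0.60. Over the 7 genes and 11 families together the family comparisons gave 19 calls, 8 for Dkk2, 5 for Sfrp2, 4 for Apcdd1, 1 for Sfrp1 and 1 for Wif1. Each comparison called between 3.06% (4T1) and 7.36% (B16) of all genes. The lower calls of Dkk2 are set against a mean that holds its high families. Dkk3, like Axin2, had 0 calls. Its unadjusted p was under 0.05 in 4 families, and there the adjusted p ran from 2.37e-14 (B16) to 0.0152 (TC1).

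**Figure D2:**
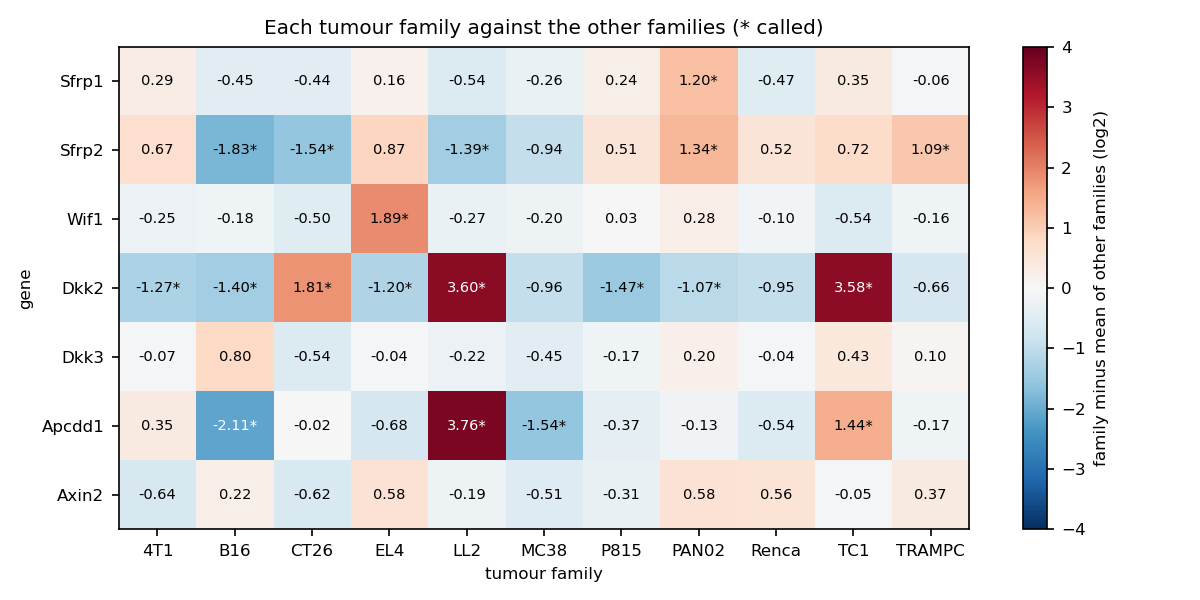
Log2 difference of each family from the average of the rest, for the 7 genes (rows) and 11 families (columns), with an asterisk at each of the 19 calls. Each comparison called between 3.06% (4T1) and 7.36% (B16) of all genes. Dkk2 and Apcdd1 are higher in LL2 and TC1, Wif1 in EL4, Sfrp1 in PAN02, and Sfrp2 in TRAMPC and PAN02. The Sfrp2 call in PAN02 was lost without the doubtful arrays.

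Dkk2 and Apcdd1 both had their highest tumour means in LL2 and TC1. Next for Apcdd1 came 4T1 (6.27), with Dkk2 at 5.14, and next for Dkk2 came CT26 (7.94), with Apcdd1 at 5.94. Pearson's r between their group means was 0.81 over the 15 tumour groups and 0.65 over all 68 groups of arrays. Both values include the LL2 and TC1 tumours, and r was not computed without them. The tumour groups include related lines, and the value is a description. LL2 and TC1 held the highest tumours of Dkk2 at the same level, up to 9.72 and 9.73, whereas for Apcdd1 every TC1 tumour lay below every LL2 tumour. Sfrp1 and Sfrp2 had r = 0.73 over the 15 tumour groups and 0.11 over all 68. Dkk3 and Axin2 had 0.52 and 0.05, and Apcdd1 and Axin2 had -0.26 and -0.43.

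**Figure D3:**
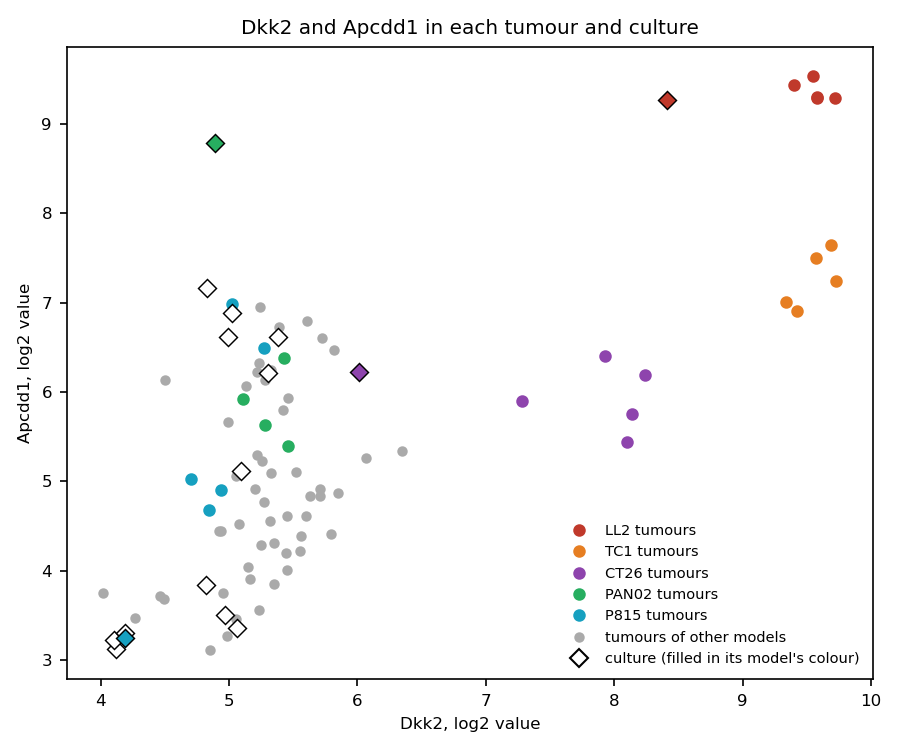
Log2 values of Dkk2 (horizontal axis) and Apcdd1 (vertical axis) in single tumours and cultures, with the leading models in colour. LL2 tumours lie near 9.57 and 9.37, TC1 tumours near 9.55 and 7.26, and CT26 tumours near 7.94 and 5.94.

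Pairs of models from 1 organ or 1 parent line narrow the comparison. LL2 and TC1, both from lung and both in C57BL/6J females, differed in Dkk2 by 0.02 ± 0.21 log2 units (adjusted p = 0.98). Apcdd1 was 2.11 ± 0.38 higher in LL2 (adjusted p = 1.69e-05), and Sfrp2 was 1.91 ± 0.55 lower (adjusted p = 0.00831). Sfrp1 (log2 difference -0.81, adjusted p = 0.0159 in limma) and Dkk3 (-0.59, adjusted p = 0.0207) were lower in LL2 too, under the fold threshold. The comparison called 5.1% of genes. The Sfrp2 call was lost without LL2 animal 16 (-1.55, adjusted p = 0.0573). The colon lines CT26 and MC38, which also differ in host strain, differed in Dkk2 by 2.51 ± 0.19 and in Apcdd1 by 1.38 ± 0.35 (adjusted p = 0.0015), both higher in CT26, with 5.66% of genes called. None of the 7 genes was called by limma between B16F10 and B16F0 (0.0582% of genes called), between the B16F0 stocks (0.473%), between the B16F10 stocks (0.124%) or between TRAMPC2 and TRAMPC1 (0%). At an unadjusted p under 0.05 the counts were 3, 0, 1 and 0.

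Growth in the animal was compared with growth in culture by subtracting each line's culture from the mean of its tumours and testing the 10 family differences against 0. Sfrp2 rose and was the only one of the 7 genes called. It was 1.76 ± 0.37 log2 units higher in tumours (adjusted p = 0.0012), with 9 of the 10 families higher, B16 by only 0.11. The comparison called 13.3% of genes, 2.04% as higher, and the median gene lay 0.26 below culture (log2 difference -0.26). That general direction depended on scaling, since with quantile normalisation 78.2% of the calls were higher and the median gene lay at -0.02, while Sfrp2 was called higher there too (1.94 ± 0.35). It stayed at 1.76 ± 0.36 without the doubtful arrays, in a comparison that called 13.1% of genes. With the 14 lines in place of families it was 1.23 ± 0.37 (limma, adjusted p = 0.00902), still called. Across the lines the tumour means lay above culture by 3.36 in PAN02, 3.28 in EL4, 3.21 in Renca, 2.40 in 4T1, 2.04 in P815, 1.63 in MC38 and 1.15 in CT26, and in these 7 lines every tumour was above its culture. The family with lower Sfrp2 in tumours was TRAMPC. Its cultures already held 7.88 (TRAMPC1) and 8.35 (TRAMPC2), the next culture held 5.63 and the lowest, Renca, 3.62. All TRAMPC tumours lay below their cultures. The fibroblast list was 6.49 and 7.08 in these 2 cultures and between 4.37 and 5.20 in the others. B16F0 from ECACC was the other line with all tumours below culture, 1.65 lower on average (log2 difference -1.65).

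Dkk2 was higher in the tumours of all 10 families, by 0.63 ± 0.16 (adjusted p = 0.00539), under the fold threshold for a call. The difference was 1.93 in CT26, 1.15 in LL2 and 1.02 in B16F0 from ATCC, and in 9 of the 14 lines every tumour lay above the culture, in 0 every tumour below. The other 5 genes had family means between -0.16 and 0.23 and were not called. For 4 of them, Sfrp1, Wif1, Apcdd1 and Axin2, the mean hides lines that lay more than 1 log2 unit above culture and others more than 1 below. For Sfrp1 the most distant were PAN02 (1.86) and LL2 (-1.02), and for Wif1 TRAMPC2 (1.04) and EL4 (-1.41).

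Apcdd1 lay above culture in 5 families and below in 5 (-0.16 ± 0.46, adjusted p = 0.802). All P815 tumours were above their culture at 3.25, by 2.37 on average and by 1.54 in the 2 without keratinocyte genes, and all Renca tumours above theirs at 3.50, by 1.96. All PAN02 tumours were below their culture at 8.79 (-2.96), all MC38 tumours below theirs at 6.62 (-2.06), and all TRAMPC1 (-1.47), EL4 (-1.29) and TRAMPC2 (-0.98, and -1.53 without the tumours of doubtful content) tumours below theirs. LL2 was high in both, at 9.27 in culture and 9.37 in tumours. The sign of the Apcdd1 mean over families depended on scaling, at -0.01 with array medians subtracted and 0.18 with quantile normalisation, and none of these was called.

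Axin2 also divided, with 5 families above and 5 below (0.13 ± 0.19, adjusted p = 0.615). All tumours lay above culture in TRAMPC2 (1.33), TRAMPC1 (1.11), PAN02 (0.95), P815 (0.51), LL2 (0.49) and Renca (0.44). All lay below in B16F0 from ATCC (-1.36), EL4 (-0.77), B16F0 from ECACC (-0.75), B16F10 from ATCC (-0.67), MC38 (-0.38) and 4T1 (-0.27). Among lines with tumours the culture values ran from 4.27 in TRAMPC2 to 6.56 in EL4, and the tumour means spanned 1.14. The Hepa1-6 culture, a line without tumours, held 8.70. Without the doubtful tumours the Axin2 difference was 0.57 in PAN02 and 0.18 in P815. Each of these line differences rests on 1 culture array.

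**Figure D4:**
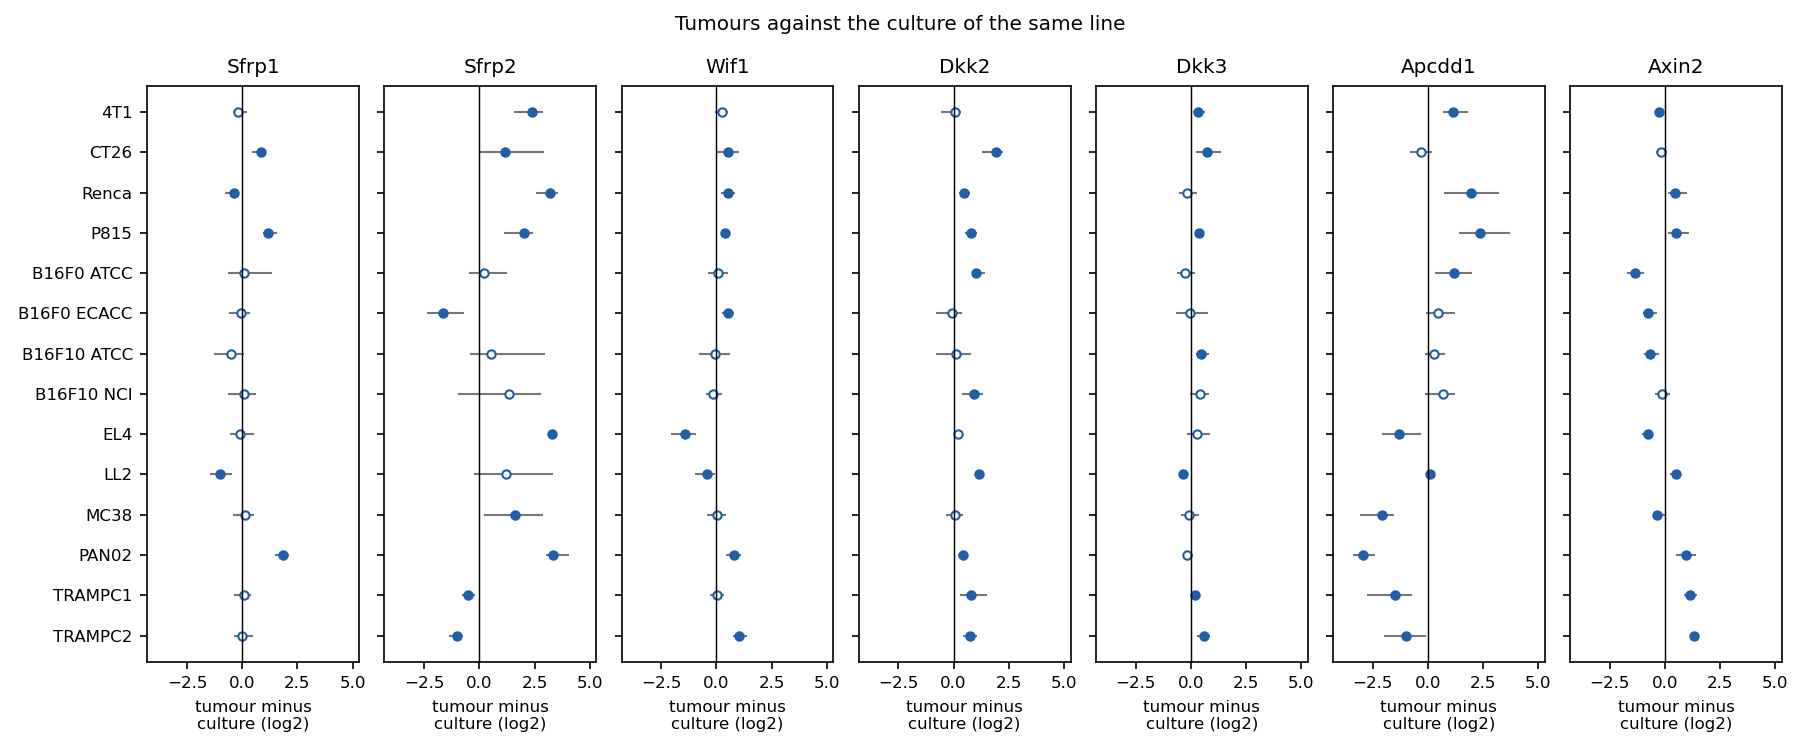
Log2 difference between tumours and the culture of the same line for the 7 genes, with a dot at the mean and a line over the range of the tumours of a line. Filled dots mark lines in which every tumour lay on the same side of the culture. Sfrp2 lies above 0 in most lines, and Apcdd1 and Axin2 fall on both sides.

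In the lymphoid organs Sfrp2 was the gene that separated node from spleen. In tumour-free mice it was 1.42 ± 0.25 log2 units higher in nodes (adjusted p = 0.000112), in a comparison that called 1.36% of genes and none of the other 6. Without the arrays of doubtful content the difference was 2.18 ± 0.12 (adjusted p = 1.27e-14; 2.15% of genes called). The remaining 16 nodes then ran from 5.41 to 7.23 with a median of 6.91, and the 17 spleens from 3.71 to 5.53 with a median of 4.54, so the organs overlapped only between 5.41 and 5.53. The C57BL/6J nodes 2 and 4 with spleen markers measured 3.42 and 3.84, and the spleens with node markers 6.89, 6.82 and 6.51. In all mice, again without the doubtful arrays, 82 nodes ran from 5.32 to 7.59 and 95 spleens from 3.22 to 6.87, the latter reached by 1 TRAMPC1 spleen. Tumour-free BALB/c nodes had Sfrp2 at 5.91 ± 0.46 (SD, n = 5). That was below the 2 undoubted C57BL/6J female nodes at 6.91 (adjusted p = 0.245, not called) and above the mean of all 5 C57BL/6J female nodes at 5.14, so which host is lowest turns on the doubtful nodes.

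**Figure D5:**
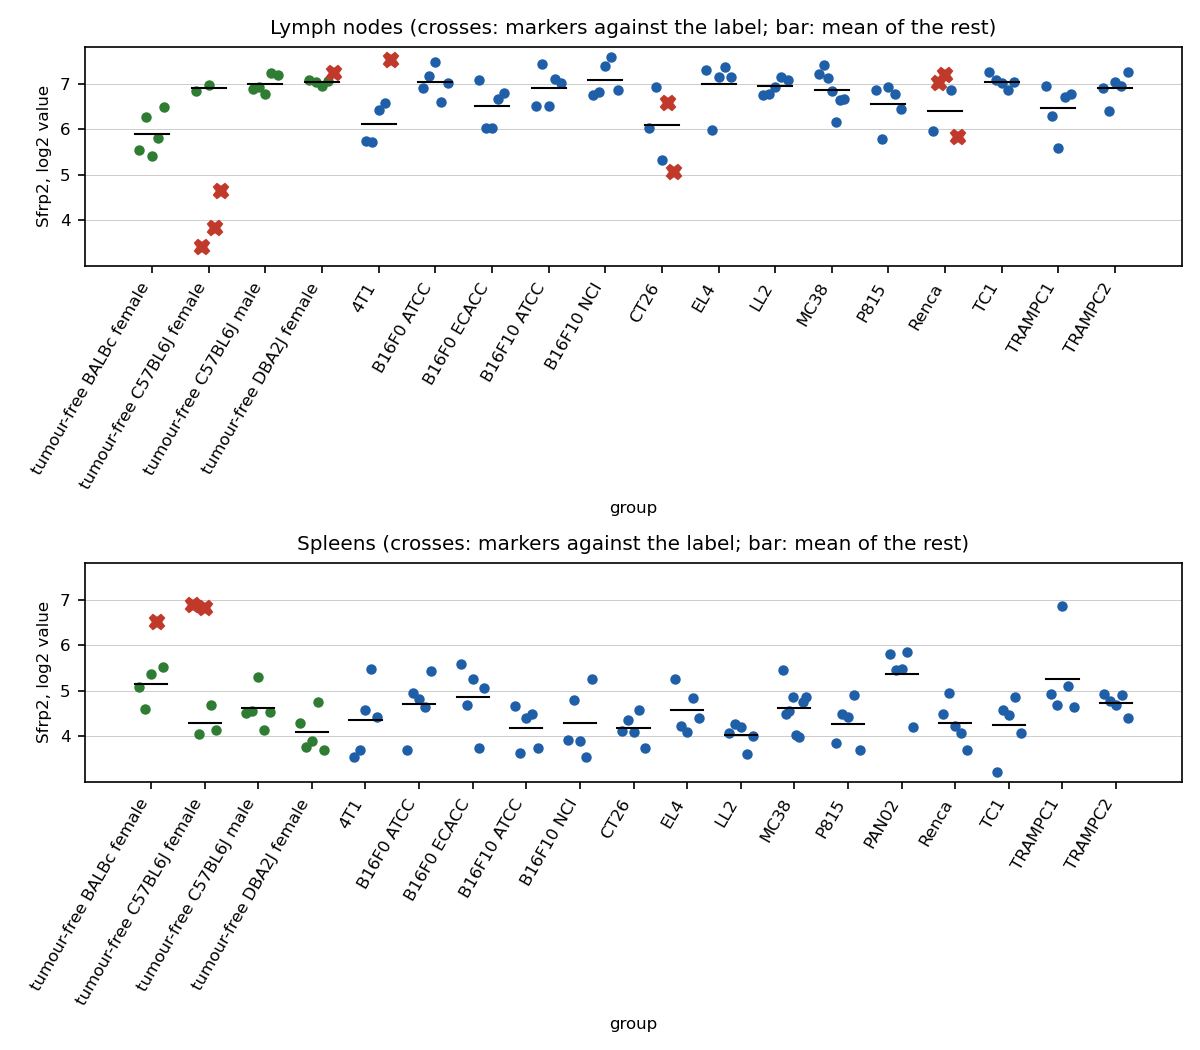
Log2 values of Sfrp2 in each node and spleen by group, tumour-free hosts in green and tumour-bearing hosts in blue. Bars are at the mean of the arrays that were kept. Red crosses are the 13 arrays of doubtful content. The kept nodes have a median of 6.87 and the kept spleens of 4.51. The crosses among tumour-free C57BL/6J females fall at the level of the other organ or between.

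Tumour-draining nodes were compared with nodes of tumour-free mice of the same strain and sex, and 0 of the 7 genes were called overall with limma, where 0.453% of genes were called. At an unadjusted p under 0.05 the count was 1, for Sfrp2, which was 0.94 ± 0.17 higher (adjusted p = 3.16e-05), under the fold threshold. Model by model Sfrp2 was called higher in all 8 models grown in C57BL/6J females, by 1.38 to 1.94 log2 units. These comparisons called 0.505% of genes for B16F0 from ATCC, 0.23% for B16F0 from ECACC, 0.297% for B16F10 from ATCC, 0.215% for B16F10 from NCI, 2.21% for EL4, 0.75% for LL2, 0.401% for MC38 and 0.156% for TC1. All 8 share the same 5 control nodes, which measured 6.85, 3.42, 6.97, 3.84 and 4.64. The 3 low controls are the nodes with spleen markers or few lymphocyte genes, and only the 2 high ones had the markers of a node. Without the doubtful arrays the 8 differences lay between -0.39 and 0.18, with 0 called. These 8 comparisons then called from 0.0451% of genes (B16F10 from NCI) to 1.89% (EL4). The difference averaged over families was 0.03 ± 0.17 (adjusted p = 0.962; 0.293% of genes called).

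Apcdd1 was the other gene called in a node comparison. It was 1.82 ± 0.38 lower in P815-draining nodes than in tumour-free DBA/2J nodes (log2 difference -1.82), with 2.14% of genes called. The control nodes measured 5.16, 5.26, 6.46, 6.49 and 8.04 and the draining nodes 4.12 to 4.75, without overlap. The control mean of 6.28 was the highest of the 18 node groups, and was still the highest at 5.84 without the doubtful arrays. The median over all 92 nodes was 4.96. Adipocyte genes had list means of 5.69, 6.28, 7.38, 7.20 and 9.20 in these controls, in the order given, against 4.73 to 6.13 in the draining nodes. Without the doubtful arrays, control 5 among them, the difference was -1.38 ± 0.34 (adjusted p = 0.0105; 1.1% of genes called), still called. When only that control was left out of the fit to all nodes, the same difference of -1.38 missed the threshold (adjusted p = 0.0635). The part of adipocyte content in this difference was not tested.

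Dkk2 was high in 2 draining nodes that also carried CT26 tumour genes. In CT26-draining nodes it measured 5.10, 4.78, 5.59, 8.13 and 7.92, a difference of 0.99 ± 0.27 from controls that was not called (adjusted p = 0.0102; 2.52% of genes called). Without the doubtful arrays, and so with 3 CT26 nodes, the difference was -0.15 ± 0.18 (adjusted p = 0.73), where 70 of 13310 genes were called. The nodes at 8.13 and 7.92 belonged to animals 28 and 29, both with few B cell genes. A mean of 5 genes taken as typical of CT26 tumours was 8.91 and 8.69 in them, 4.16 to 4.58 in the other CT26 nodes and 9.02 to 9.14 in the CT26 tumours. The genes were Rpl39l, 1700012B09Rik, Baiap2l1, Esm1 and Amigo2, and their level in CT26 tumours is no result in itself. The 4T1 node with few B cell genes had epithelial genes at 8.08, where 4T1 tumours had 7.38 to 8.03, and its Apcdd1 was 6.90 against 3.71 to 5.90 in the other 4T1 nodes.

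In spleens 0 of the 7 genes were called overall with limma (0.231% of genes called, and 0.0224% without the doubtful arrays). At an unadjusted p under 0.05 the count was 1, again for Sfrp2. It was 0.68 ± 0.19 lower in tumour-bearing mice (log2 difference -0.68, adjusted p = 0.0199) with all arrays and -0.04 (adjusted p = 0.974) without the doubtful ones. Its call in LL2 spleens (-1.28 ± 0.39, adjusted p = 0.0408; 1.99% of genes called) likewise went to -0.26 without them (0.284% of genes called). Between tumour-free hosts, set against C57BL/6J females, Sfrp2 was called in nodes of DBA/2J females (1.94; 2.54% of genes called) and C57BL/6J males (1.86; 0.23%) and in spleens of DBA/2J females (-1.24; 2.45%), and Apcdd1 in nodes of DBA/2J females (1.21). Without the doubtful arrays these 4 differences were 0.13, 0.09, -0.21 and 0.92, and 0 were called. Those comparisons then called 1.25% of genes for DBA/2J nodes, 0.0376% for C57BL/6J male nodes and 1.34% for DBA/2J spleens.

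The other 5 genes stayed within narrow ranges in these organs. Without the doubtful arrays Dkk2 ran from 4.54 to 5.78 in nodes and from 4.53 to 5.69 in spleens, far under its LL2 and TC1 tumours. Axin2 ran from 4.73 to 6.18 in nodes and from 4.74 to 6.02 in spleens. Wif1 reached at most 5.32 in nodes and 5.67 in spleens, below every EL4 tumour. Sfrp1 reached 5.77 and 6.14, below every PAN02 tumour, and Dkk3 reached 5.57 and 5.58.

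Other genes of the pathway give the setting, from lists of 85 measured genes beside the 7. In tumours against culture 1 of the 85 was called (1.18%, against 13.3% of all genes), the cyclin gene Ccnd1, which fell by 1.14 ± 0.21 (adjusted p = 0.000503), and the median of the 85 was -0.13 against -0.26 over all genes. Among tumour models 38 of the 85 were called (44.7%, against 52.8% of all genes), with a median span of 0.92 against 1.06 over all genes. They were 5 of 19 Wnt ligands, 9 of 14 receptors, 2 of 5 R-spondins and their receptors, 5 of 13 other antagonists, 8 of 14 feedback and target genes, 4 of 10 genes of the destruction complex and transduction, and 5 of 10 TCF factors and cofactors. The widest spans were those of the antagonist Sfrp4 (3.87), the R-spondin receptor Lgr5 (3.68), Ccnd1 (3.07), the receptor Fzd3 (3.04) and the ligand Wnt5a (2.62).

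By family between 1 and 6 of the 85 were called. EL4 had 6 (7.06%), where 6.91% of all genes were called, and TRAMPC had 6 as well, where 3.67% were. In TRAMPC, which had high Sfrp2, these included Sfrp4 (3.19 ± 0.30), Wnt5a (1.97 ± 0.13), the secreted target Ccn4 (1.60 ± 0.10), the receptor Fzd2 (1.42 ± 0.18) and Rspo3 (1.32 ± 0.12), all higher. PAN02, with high Sfrp1, had Lgr5 higher by 3.25 ± 0.19. Its 4 tumours measured 7.94, 6.40, 7.40 and 8.07, above every other tumour (3.23 to 5.71), with the lower values in the animals whose acinar genes were high. B16, with low Apcdd1 and Sfrp2, had the antagonist Frzb (1.42 ± 0.13), Ctnnb1, which encodes beta-catenin (1.33 ± 0.06), and Lrp6 (1.20 ± 0.07) higher. LL2 and TC1, both high in Dkk2, differed in Fzd3, which was lower in LL2 (log2 difference -2.93), and in Myc, which was 1.71 higher.

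Over the means of all 68 groups the genes most like each of the 7 were named by Pearson's r, as a description of groups that share lines and organs. Sfrp2 was most like Postn (0.81), Tnc (0.75) and Ccl8 (0.72), and Postn is also on the fibroblast list. Apcdd1 was most like Ltbp1 (0.74), Adgrg6 (0.73) and Tpm2 (0.71), and Dkk3 like Aph1c (0.81), Gpr158 (0.79) and Slc6a17 (0.78). When the 2 groups with the highest level of the gene were left out, the 3 values were 0.78, 0.71 and 0.85 for Sfrp2, 0.72, 0.70 and 0.71 for Apcdd1 and 0.75, 0.75 and 0.73 for Dkk3. For Wif1 the likeness to Timd2 (0.83), Thsd7b (0.81) and Kcnma1 (0.80) dropped to 0.23, 0.29 and 0.26 without the EL4 culture and tumours. For Axin2 the likeness to Vil1 (0.72), Abca6 (0.72) and Hunk (0.71) dropped to 0.40, 0.23 and 0.46 without the Hepa1-6 and EL4 cultures. For Dkk2 that to Thbs2 (0.73), Cacna1c (0.73) and Clmp (0.69) dropped to 0.59, 0.42 and 0.50 without the LL2 and TC1 tumours. Sfrp1 was most like Actn3 (0.62), Tmem54 (0.61) and Tmem100 (0.58), which gave 0.54, 0.62 and 0.51 without PAN02 tumours and the LL2 culture.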

How the data were processed

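Total RNA of tumours, nodes, spleens and cultures was amplified with a NuGEN kit, labelled with biotin and hybridised, per the labels' protocols. The deposited table holds log2 values of 17831 probe sets on 283 arrays made by the authors with RMA, per the submitters' processing notes. Neither the version of RMA nor a genome build is named in the sources used here. RMA compresses differences of weakly expressed genes. Values ran from 0.4 to 12.93 and array medians from 5.19 to 5.66. No 2 arrays were identical (0 pairs). The number of arrays limits the precision.

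Probe sets naming 1 symbol were used (15620), and 1370 naming several and 841 naming none were not. Of those used, 15559 matched RefSeq by gene identifier. For 375 genes with several probe sets the one with the highest mean was kept, leaving 15224 genes. A gene was tested if it lay above 4.3, the 25th percentile of all values, on at least 4 of the arrays compared. limma 3.58.1 (lmFit, eBayes) in R 4.3.3 was fitted over all genes of a comparison, two-sided. A call needs a Benjamini-Hochberg adjusted p under 0.05 and an absolute log2 difference (for the F test, a range of means) of at least 1. Errors marked ± are standard errors unless SD is written. The script was tested on simulated data. Python 3.11.15, pandas 2.3.3, numpy 2.4.6 and matplotlib 3.10.9 were used for tables and figures.

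All tumours entered 1 fit with the model as factor, nodes another and spleens another. Tumour-bearing organs were set against tumour-free mice of the same strain and sex, and models of 1 host kind share those controls. The overall effect averages families.

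The members, the lists and the tests were chosen with earlier results of these data known. Named genes are the 7 members, in each comparison at most the 5 called genes of the Wnt lists with the largest differences, and the 3 genes most correlated with each member. The 5 genes taken as typical of CT26 tumours are named besides. Alternatives were quantile normalisation, subtraction of array medians, no filter or a stricter one at the 40th percentile, a trended and robust prior, the mean of a gene's probe sets, lines in place of families, models in place of families, only the groups compared, and leaving out each array or family. Leaving out the 13 organ arrays and 9 tumours of doubtful content was added after seeing the data. Node and spleen of a tumour-free mouse come from the same animal, so the node to spleen comparison was repeated with the animal as a block. Deviations from group means of the 20 node and spleen pairs correlated between -0.19 and 0.29, with a median of 0.01.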

Additional observations from a re-analysis of the deposited data

Results flagged for a closer look

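In groups of 4 to 10 arrays, a value of 1 of the 7 genes was singled out when its gap to the nearest of the others was a large share of the group's range by Dixon's criterion. Of 364 gene and group combinations, 26 met it, 6 of 105 in tumours, 8 of 126 in nodes and 12 of 133 in spleens. Chance gives about 1 in 20. All values are log2 values, and no cause was tested.

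Among tumours, Sfrp2 in the B16F10 (ATCC) tumour of animal 7 was 7.34, where the nearest of its group was 4.56. Sfrp2 in P815 animal 28, a tumour with keratinocyte genes, was 5.89, the lowest of its group. TC1 animal 19 stood apart for both Dkk3, highest at 5.91, and Wif1, lowest at 3.59. Dkk2 in 4T1 animal 36 was lowest at 4.50, and Sfrp1 in Renca animal 23 was lowest at 5.04.

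Among nodes, Sfrp2 in EL4 animal 14 was lowest at 5.98, where the nearest was 7.14. Apcdd1 in MC38 animal 58 was lowest at 4.24. Axin2 was lowest in EL4 animal 18 (4.73) and in Renca animal 23 (5.21). Dkk3 was lowest in 4T1 animal 33 (3.86) and highest in TC1 animal 24 (5.49). Sfrp1 in P815 animal 29 was lowest at 4.73, and Wif1 in TC1 animal 19 was lowest at 3.95.

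Among spleens, Sfrp2 in TRAMPC1 animal 28 was highest at 6.87, where the nearest was 5.11, and Sfrp2 in PAN02 animal 6 was lowest at 4.21. Sfrp1 was highest in MC38 animal 58 (6.04) and Renca animal 24 (5.68) and lowest in TRAMPC2 animal 35 (4.92). Apcdd1 was lowest in tumour-free DBA/2J animal 2 (4.49) and in LL2 animal 18 (4.60). Axin2 was highest in tumour-free C57BL/6J female 1 (5.80), a spleen with node markers, and in tumour-free DBA/2J animal 4 (5.71). Dkk2 in MC38 animal 56 was highest at 5.69, Dkk3 in tumour-free BALB/c animal 10 lowest at 4.21, and Wif1 in tumour-free C57BL/6J male 3 lowest at 4.01.

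For 6 genes there were lines in which every tumour lay above the culture and lines in which every tumour lay below, and the most distant pair is given here. The difference between the lines was not tested, since each culture is 1 array. Apcdd1 was 2.37 in P815 and -2.96 in PAN02, Axin2 was 1.33 in TRAMPC2 and -1.36 in B16F0 from ATCC, and Sfrp2 was 3.36 in PAN02 and -1.65 in B16F0 from ECACC. Sfrp1 was 1.86 in PAN02 and -1.02 in LL2, Wif1 was 1.04 in TRAMPC2 and -1.41 in EL4, and Dkk3 was 0.73 in CT26 and -0.35 in LL2. Each value is the mean of the tumours minus the culture.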

How the results depend on the processing

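The single values given above, 49 in all, were recomputed under 9 planned settings, and 252 of 258 checks kept direction and side of the threshold. The mean of a gene's probe sets is not counted, since each of the 7 genes has 1 probe set and its value could not move. Changing the filter or the prior cannot move a log2 difference, so in those checks only the adjusted p could change. Leaving out the doubtful arrays is not among the 258 checks. Under it 35 of the 49 values were the same in direction and side, 12 were weaker and 2 were reversed. The 6 exceptions, with causes not tested, were Sfrp2 in nodes of all models with models averaged (1.02, called), Sfrp2 in B16F0 (ECACC) nodes with quantile normalisation (1.33, adjusted p = 0.0658), Apcdd1 in tumour-free DBA/2J nodes with quantile normalisation (1.08) or only the compared groups (1.21), and, with only the compared groups, Sfrp2 in C57BL/6J male nodes (1.86, adjusted p = 0.226) and DBA/2J spleens (-1.24, adjusted p = 0.126). With the animal as a replicate block, Sfrp2 in nodes minus spleens stayed at 1.42 and the comparison called 177 genes with and without the block.

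Scaling mattered for tumour against culture, where 1846 genes were called, 1308 with array medians subtracted and 513 with quantile normalisation. The share of calls that were higher was 15.3%, 29.1% and 78.2%, and the median gene lay at -0.26, -0.11 and -0.02. Averaging models gave 1 member called in nodes of all models, 35 genes in nodes and 19 in spleens, where families gave 0, 61 and 31. Fitting only the groups compared gave 1 member call between tumour-free hosts in place of 4.

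Without the arrays of doubtful content, 39 genes were called in nodes of all models, 3 in spleens of all models and 277 between node and spleen. These fits hold fewer arrays, and their spleens were not checked for acinar genes. Calls of members by model went from 9 to 1 in nodes and from 1 to 0 in spleens, and between hosts from 4 to 0. The share of all genes called fell in these comparisons too. It went from 2.14% to 1.1% in P815 nodes, from 1.99% to 0.284% in LL2 spleens and from 2.54% to 1.25% between DBA/2J and C57BL/6J female nodes. Sfrp2 changed sign in B16F0 (ECACC) nodes (-0.39) and in MC38 nodes (-0.04).

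Leaving out 1 array gave 33 to 91 genes and 0 to 1 members called in nodes of all models, 21 to 59 genes in spleens of all models, 0 to 3 member calls by model in spleens and 0 to 4 between hosts. The call of 1 member in nodes, Sfrp2, came without tumour-free C57BL/6J female node 1 (1.15) or 3 (1.17). The lowest and highest gene counts came without C57BL/6J female nodes 5 and 4, and the highest spleen counts without C57BL/6J female spleen 2. Sfrp2 in B16F0 (ECACC) nodes lost its call without any of 6 nodes, and in LL2 spleens without any of 5 spleens. The host calls were lost for Apcdd1 without any of 4 nodes and for Sfrp2 in DBA/2J spleens without any of 6 spleens.

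Each line had 1 culture array, and only 4 sets of tumour-free controls exist. Values near the filter of 4.3 are close to the arrays' lower end, where RMA compresses differences.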
